A study of Mus musculus with 4 samples.

Results

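The genes described here make prostaglandins and leukotrienes, and they are the rows of the deposited expression table whose symbol is Ptgs1, Ptgs2, Ptges, Hpgds, Alox5, Alox5ap, Ltc4s, Lta4h, Alox15 or Alox12. All 10 symbols were found among the 24421 rows of the table. The data are RNA-seq libraries from 4 C57BL/6 mice aged 8 weeks, of which 2 carried intact Usp25 (Usp25+/+, WT-139 and WT-140) and 2 lacked it (Usp25-/-, KO-826 and KO-850). The USP25 protein is a deubiquitinating enzyme. Every mouse, Usp25+/+ mice included, was given 2.5% dextran sulfate sodium (DSS, an agent that injures the gut lining) over 5 days and then plain water for 2 days, and the tissue is labelled colon, so there is no group without DSS. How the Usp25-/- line was made, and whether the mice were littermates, are not given in the labels. The comparison asks whether eicosanoid synthesis genes differ between DSS-treated mice with and without Usp25.

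Prostaglandins and leukotrienes are lipid mediators made from arachidonic acid, which phospholipase A2 enzymes release from membranes. Cyclooxygenases turn it into prostaglandin H2, and terminal synthases then make prostaglandin E2, prostaglandin D2 and other prostanoids. The 5-lipoxygenase route makes leukotriene A4, from which the neutrophil attractant leukotriene B4 or the cysteinyl leukotrienes are formed. In the gut, prostaglandin E2 is known for supporting the epithelium after injury, and leukotriene B4 for drawing in neutrophils.

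Levels are FPKM, fragment numbers corrected for transcript length and library size. They do not correct for differences in RNA composition between libraries, so comparisons between mice are made with that limit. Usp25 followed the genotype labels, at 38.5 and 16.6 FPKM in mice WT-139 and WT-140 and at 2.65 and 1.71 FPKM in mice KO-826 and KO-850. The tissue label was not borne out by most colon epithelium markers in either genotype. Of 11 such markers, 8 stayed below 1 FPKM in every mouse, among them the mucin gene Muc2 at no more than 0.193 FPKM. Cdx1, Aqp8 and Zg16 were listed at 0 throughout. Krt20 had 4.31 and 3.11 FPKM in Usp25+/+ and 52.4 and 7.35 FPKM in Usp25-/- mice. For Lgals4 the levels in the same order were 7.04, 9.83, 70.6 and 28.8 FPKM, and Vil1 reached 1.46 FPKM in mouse KO-826. A list of 6 colon muscle markers summed to 13.3 to 20.1 FPKM. The summed level of 9 lung epithelium markers was 2308 to 5371 FPKM, and that of 9 alveolar macrophage markers was 7186 to 10104 FPKM. The values below are therefore those of libraries labelled colon. Mouse WT-139 stood apart, with 41888 FPKM over 10 neutrophil markers against 763 FPKM in WT-140, 2101 FPKM in KO-826 and 1239 FPKM in KO-850. In such bulk RNA, fewer cells of a type and less RNA per cell cannot be told apart.

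**Figure D1:**
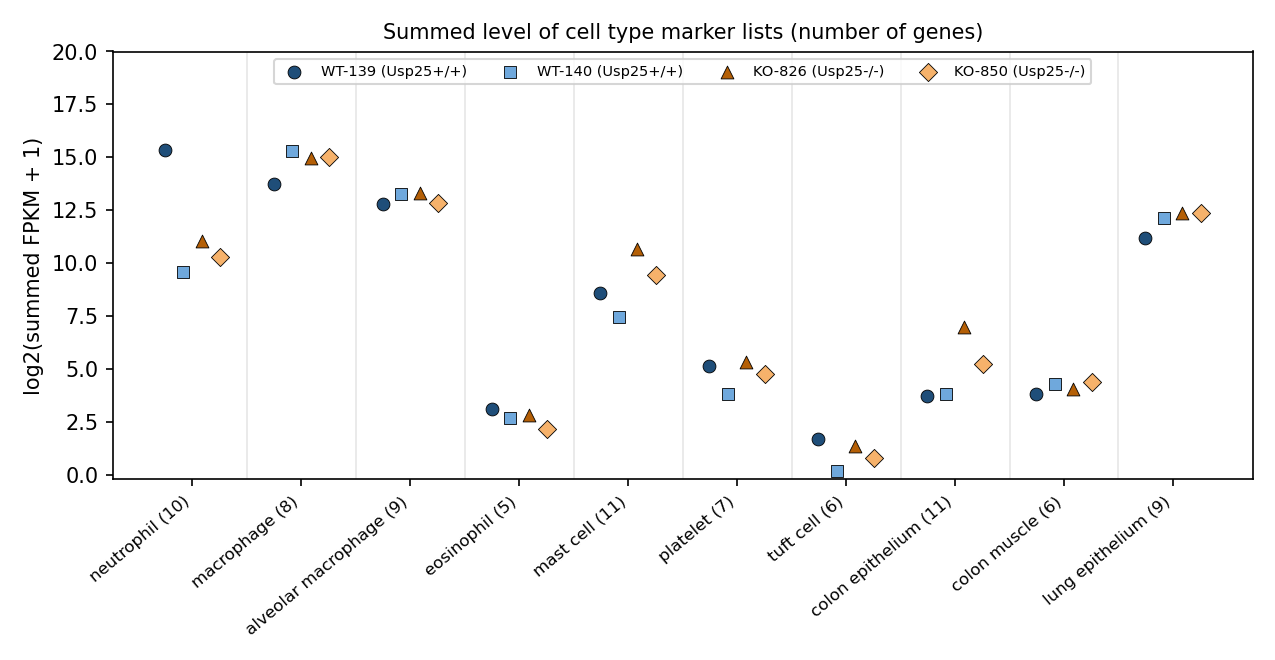
Summed FPKM of each cell type marker list, as log2(sum + 1) on the vertical axis, a point per mouse and the number of genes of the list in parentheses on the horizontal axis. The neutrophil sum is 41888 FPKM in mouse WT-139 against 763 to 2101 FPKM in the other mice, while eosinophil and tuft cell sums stay at or below 7.59 and 2.29 FPKM.

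None of the eicosanoid synthesis genes passed the test between the genotypes when all 4 mice were used. Usp25 itself did not pass either, with a log2 difference of -3.07 (Usp25-/- minus Usp25+/+) and a limma adjusted p of 0.968. A gene that did not pass may therefore still differ. With Benjamini-Hochberg adjustment, limma called 0 of 12103 tested genes at a threshold of 0.05 (0%), and 9 of the 10 synthesis genes were tested, Alox12 being too low. Of these 9 genes, 5 had a higher mean log2(FPKM + 1) in Usp25-/- mice and 4 a lower one, beside 53.6% higher and 46.4% lower over all tested genes. Their median log2 difference (Usp25-/- minus Usp25+/+) was 0.22, against 0.03 over all tested genes. The genotypes did not overlap for 2 genes that were higher in Usp25-/- mice, Ptgs1 and Alox15, where 19.0% of all tested genes behaved so. They did not overlap for 3 genes that were lower, Hpgds, Alox5 and Alox5ap, where the share of all tested genes was 14.7%. These counts over 9 genes were not tested. At an unadjusted threshold of 0.05, limma gave 400 genes, or 3.30% of those tested, and Alox15 was the only synthesis gene among them. Without mouse WT-139, 4 of the 9 genes were higher.

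**Figure D2:**
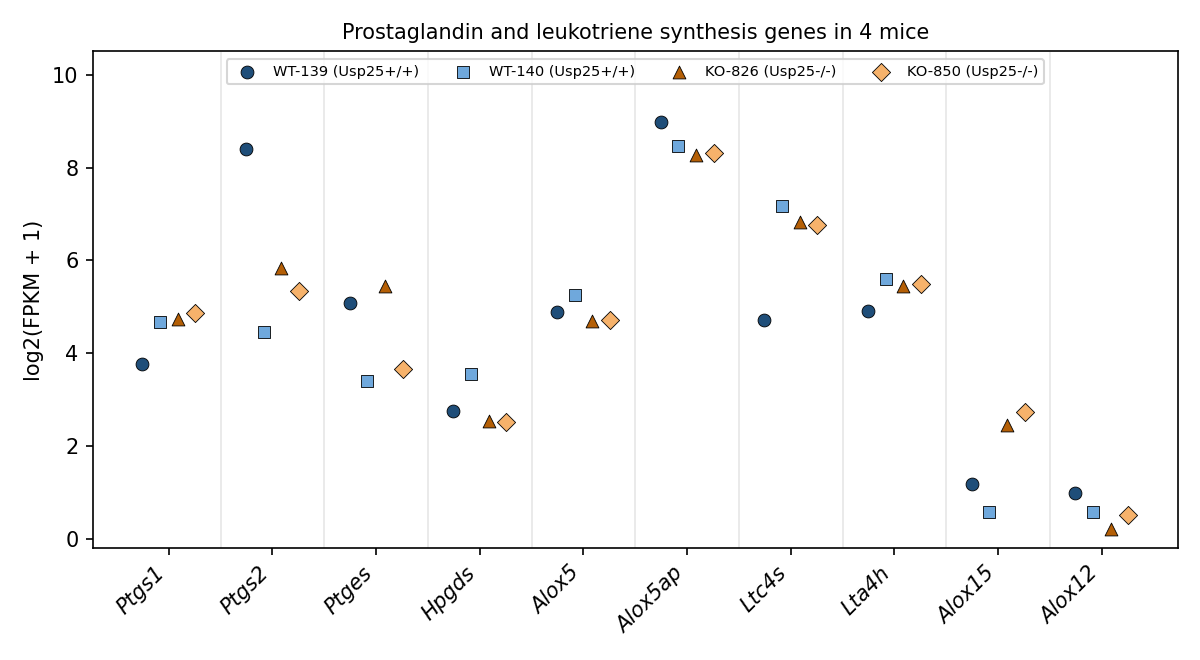
Level of each synthesis gene (vertical axis, log2 of FPKM + 1) with a point per mouse and with the genes in order of their role in the pathway. Alox5ap is highest in every mouse, Alox15 separates the genotypes at 0.499 to 1.28 against 4.48 to 5.68 FPKM, and Ptgs2 reaches 337 FPKM in mouse WT-139.

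Alox5ap, which encodes the membrane protein that presents arachidonic acid to 5-lipoxygenase, was the most abundant of the 10 genes in every library. Its level exceeded that of 97.8% of the tested genes in mouse KO-826, the lowest share among the mice, and 98.8% in mouse WT-139, the highest. Alox12 was the lowest in mice WT-139, KO-826 and KO-850, and Alox15 was the lowest in mouse WT-140. Ltc4s held the second place in mouse WT-140 and in both Usp25-/- mice, and Ptgs2 held it in mouse WT-139. The order of the middle genes differed from mouse to mouse.

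The cyclooxygenases Ptgs1 and Ptgs2 catalyse the committed step of prostanoid synthesis. Ptgs1 is the constitutive form of many tissues and Ptgs2 the form induced by inflammatory signals. The windows from 250 bases before to 50 bases after their annotated starts are shown because these isoenzymes took opposite extremes in mouse WT-139. Both come from RefSeq on build GRCm38.p6, plus strand, at chr1:150099781-150100080 for Ptgs2 and chr2:36230176-36230475 for Ptgs1. Capitals mark letters that match one of the motifs searched.
Ptgs2: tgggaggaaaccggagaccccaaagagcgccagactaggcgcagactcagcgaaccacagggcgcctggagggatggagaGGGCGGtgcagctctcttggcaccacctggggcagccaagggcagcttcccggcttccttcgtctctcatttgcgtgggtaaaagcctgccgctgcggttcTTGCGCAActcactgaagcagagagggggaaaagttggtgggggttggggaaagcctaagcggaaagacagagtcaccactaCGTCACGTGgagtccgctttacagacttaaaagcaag
Ptgs1: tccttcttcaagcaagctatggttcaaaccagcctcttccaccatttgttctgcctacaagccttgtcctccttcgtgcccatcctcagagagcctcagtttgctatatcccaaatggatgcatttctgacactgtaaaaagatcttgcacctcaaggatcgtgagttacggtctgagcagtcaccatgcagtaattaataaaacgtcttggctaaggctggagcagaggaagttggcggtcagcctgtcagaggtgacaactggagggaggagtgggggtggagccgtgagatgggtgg

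Motifs were searched on both strands as CACGTG (E-box), CGTCA (cAMP response element half-site), TTGCNNAA (C/EBP), GGGCGG (the GC box), TATAAA (the TATA box) and the kappaB consensus. The Ptgs2 window held an E-box, a half-site, a C/EBP match and a GC box, the half-site and the E-box sharing 2 letters. The Ptgs1 window held none of these letters. Among the 32851 RefSeq windows of 300 bases, the shares with a match were 7.15% for the E-box, 20.8% for the half-site, 10.8% for C/EBP, 35.7% for the GC box, 13.6% for the TATA box and 4.51% for kappaB. Of the 8 synthesis genes with a RefSeq window, Ptgs2 was the only one with an E-box or a half-site, Hpgds also had a C/EBP match, and Ptges, Alox5 and Alox12 also had a GC box. No window of Alox5ap or Alox15 was in the table. A match is a description of letters and says nothing about binding in these mice.

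Ptgs1 stood at 12.6 and 24.4 FPKM in mice WT-139 and WT-140 and at 25.8 and 28.3 FPKM in mice KO-826 and KO-850. Mouse WT-139 was low, and mouse WT-140 lay just under the Usp25-/- mice. The means were 18.5 ± 8.32 and 27.0 ± 1.74 FPKM (SD, n = 2), a log2 difference of 0.59 ± 0.39 (SE) with a limma adjusted p of 0.968. Without mouse WT-139 the difference was 0.14.

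Ptgs2 stood at 337 and 21.0 FPKM in mice WT-139 and WT-140 and at 56.2 and 39.3 FPKM in mice KO-826 and KO-850. The Usp25+/+ mice held both the highest and the lowest value, on either side of the Usp25-/- mice. The means were 179 ± 223 and 47.8 ± 12.0 FPKM (SD, n = 2), and the log2 difference was -0.84 ± 1.26 (SE, limma adjusted p = 0.970). The direction depended on which Usp25+/+ mouse was kept. Without mouse WT-140 the difference was -2.81, with a limma adjusted p of 0.0476, and without mouse WT-139 it was 1.13, with an adjusted p of 0.758. Neutrophil markers shared their highest library with Ptgs2. All 10 of the list in the table were highest in mouse WT-139. Their median was 238 FPKM there, against 11.6 FPKM in WT-140, 14.0 FPKM in KO-826 and 17.3 FPKM in KO-850. Outside mouse WT-139, their median was highest in KO-850, while their sum and Ptgs2 were highest in KO-826. The part of neutrophil content in the Ptgs2 level was not tested. The table also lists Ptgs2os2, named as an opposite-strand transcript of Ptgs2, at 6.90 FPKM in WT-139, 2.66 FPKM in WT-140, 7.74 FPKM in KO-826 and 4.15 FPKM in KO-850. Ptgs2 itself overlaps no other gene in the Gencode M1 annotation on mm9.

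Ptgs2 made up 96.4% of the summed FPKM of both cyclooxygenases in mouse WT-139. In mouse WT-140 it made up 46.3%, and in mice KO-826 and KO-850 it made up 68.5% and 58.2%. Ptgs1 exceeded Ptgs2 in mouse WT-140 alone.

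**Figure D3:**
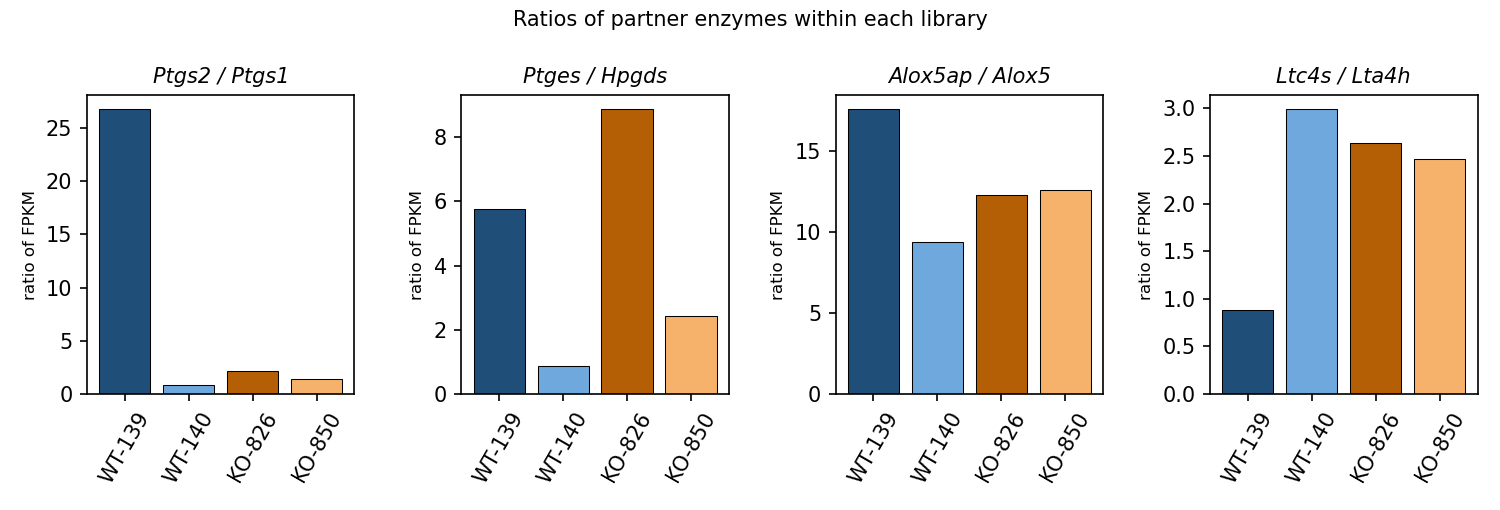
Ratio of FPKM between partner enzymes within each library, on a linear vertical axis that starts at 0, with 1 bar for each mouse. Ptgs2 over Ptgs1 is 26.8 in mouse WT-139 against 0.862 to 2.18 in the others, and Ltc4s over Lta4h is 0.880 in mouse WT-139 against 2.46 to 2.99.

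Ptges and Hpgds encode terminal synthases. Ptges, the inducible prostaglandin E synthase that is known to work with Ptgs2, was found at 33.0 and 9.53 FPKM in the Usp25+/+ mice and at 43.0 and 11.6 FPKM in the Usp25-/- mice. Each genotype held 1 high mouse (WT-139, KO-826) and 1 low mouse (WT-140, KO-850), so the spread within genotypes exceeded the difference between them. The log2 difference was 0.31 ± 0.81 (SE, limma adjusted p = 0.980). It was -0.53 without mouse WT-140, -0.59 without mouse KO-826, 1.16 without mouse WT-139 and 1.22 without mouse KO-850. Ptges and Ptgs2 did not share a highest library, since mouse KO-826 had the highest Ptges and mouse WT-139 the highest Ptgs2.

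Hpgds, the synthase of prostaglandin D2 in mast cells, some macrophages and T helper 2 cells, stood at 5.71 FPKM in WT-139 and 10.8 FPKM in WT-140. Its levels in the Usp25-/- mice were 4.85 and 4.74 FPKM. The Usp25-/- values were close together and below both Usp25+/+ values, although mouse WT-139 was nearer to them than to mouse WT-140. The means were 8.26 ± 3.60 and 4.80 ± 0.0761 FPKM (SD, n = 2), with a log2 difference of -0.62 ± 0.37 (SE, limma adjusted p = 0.968). Without mouse WT-140 the difference was -0.21, and without mouse WT-139 it was -1.03. Ptges over Hpgds was 5.78 and 0.882 in mice WT-139 and WT-140 and 8.87 and 2.44 in mice KO-826 and KO-850. Summed over 11 mast cell markers, the level came to 386 FPKM in WT-139, 174 FPKM in WT-140, 1638 FPKM in KO-826 and 701 FPKM in KO-850, so the Usp25-/- mice, lower in Hpgds, were the higher here. Most of the Usp25-/- sum came from the mucosal mast cell proteases Mcpt1, at 73.8 and 134 FPKM in Usp25+/+ and 1428 and 592 FPKM in Usp25-/- mice, and Mcpt2, whose levels in the same order were 18.4, 20.7, 167 and 79.5 FPKM. Neither passed the limma test with all mice. Hdc was highest in mouse WT-139, at 287 FPKM against 13.5 to 39.0 FPKM, and Kit was at 3.98 to 5.85 FPKM. The other 7 markers, among them Cpa3, Fcer1a and Ms4a2, stayed below 1 FPKM in all mice, and Tpsb2 was listed at 0. The part of mast cell content in the Hpgds level was not tested.

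Alox5 encodes 5-lipoxygenase, the enzyme that starts leukotriene synthesis. It was found at 28.6 and 37.3 FPKM in the Usp25+/+ mice and at 25.0 and 25.3 FPKM in the Usp25-/- mice. Both Usp25-/- values were below both Usp25+/+ values, by a log2 difference of -0.37 ± 0.30 (SE, limma adjusted p = 0.968). The difference was -0.18 without mouse WT-140 and -0.55 without mouse WT-139. This gene varied least of the 9 tested, with 1.49-fold between its highest and lowest library. Alox5ap had 504 and 350.0 FPKM in Usp25+/+ and 308 and 319 FPKM in Usp25-/- mice. The Usp25-/- mice were again the lower, and most of the distance came from mouse WT-139. The log2 difference was -0.42 ± 0.37 (SE, limma adjusted p = 0.968) and became -0.16 without mouse WT-139 and -0.69 without mouse WT-140. Alox5ap exceeded Alox5 in every library, by 17.6-fold and 9.38-fold in mice WT-139 and WT-140 and by 12.3-fold and 12.6-fold in mice KO-826 and KO-850.

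Some macrophage markers were lower without overlap in the Usp25-/- mice, as were Hpgds, Alox5 and Alox5ap. Of 8 macrophage markers, these were Adgre1, at 142 and 110 FPKM against 72.5 and 76.5 FPKM, and Csf1r, at 96.2 and 52.8 FPKM against 47.3 and 48.0 FPKM, while the other 6 overlapped. Of 9 alveolar macrophage markers, 7 overlapped, Siglecf was lower (29.2 and 48.9 against 26.5 and 21.9 FPKM) and Pparg was higher (27.4 and 54.3 against 80.4 and 66.6 FPKM). Over all tested genes, 14.7% were lower and 19.0% higher without overlap, so the lack of overlap of these few markers is a description only. None of these 4 markers passed the limma test, and the part of macrophage content in the 3 synthesis genes was not tested.

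Lta4h and Ltc4s compete for leukotriene A4. Ltc4s, which joins it to glutathione to give the cysteinyl leukotriene C4, stood at 25.4 and 142 FPKM in mice WT-139 and WT-140 and at 113 and 108 FPKM in mice KO-826 and KO-850. Mouse WT-139 was low and the other 3 were alike, mouse WT-140 being the highest. The log2 difference was 0.86 ± 0.81 (SE, limma adjusted p = 0.968). Without mouse WT-140 it was 2.08, with a limma adjusted p of 0.0476, and without mouse WT-139 it was -0.36, with an adjusted p of 0.763. Macrophage markers differed in the same library only in part. Their sum, of which Lyz2 is the main share, was 13506 FPKM in mouse WT-139 against 40542 FPKM in WT-140, 32447 FPKM in KO-826 and 33552 FPKM in KO-850, whereas their median was 136 FPKM against 165, 136 and 106 FPKM. Of 6 tuft cell markers 5 stayed below 1 FPKM in all mice and of 5 eosinophil markers 4 did. The part of cell content in the Ltc4s level was not tested.

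Lta4h, which hydrolyses leukotriene A4 to leukotriene B4, was found at 28.9 and 47.6 FPKM in the Usp25+/+ mice and at 42.7 and 43.9 FPKM in the Usp25-/- mice. Its values followed the same order as Ltc4s at the extremes, with mouse WT-139 lowest and mouse WT-140 highest, over a much smaller span of 1.65-fold against 5.60-fold. The log2 difference was 0.22 ± 0.35 (SE, limma adjusted p = 0.972) and turned to -0.13 without mouse WT-139. Ltc4s exceeded Lta4h by 2.99-fold, 2.64-fold and 2.46-fold in mouse WT-140, mouse KO-826 and mouse KO-850, and was below it in mouse WT-139 at a ratio of 0.880. In mouse WT-139, Ltc4s was at its lowest and Ptgs2 at its highest.

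Those 2 genes, Ptgs2 and Ltc4s, were also the only synthesis genes that limma called after leaving out a mouse. Without mouse WT-140 limma called 163 of 11793 tested genes, 150 lower and 13 higher in Usp25-/- mice, or 1.38%, and 2 of 9 synthesis genes were among them. Mouse WT-139 was then the lone Usp25+/+ mouse and was assumed to vary like the Usp25-/- mice. Without mouse WT-139 limma called 0 of 11717 genes, with 656 at an unadjusted threshold of 0.05, and neither gene was called, with Ptgs2 then at 1.13 and Ltc4s at -0.36.

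**Figure D4:**
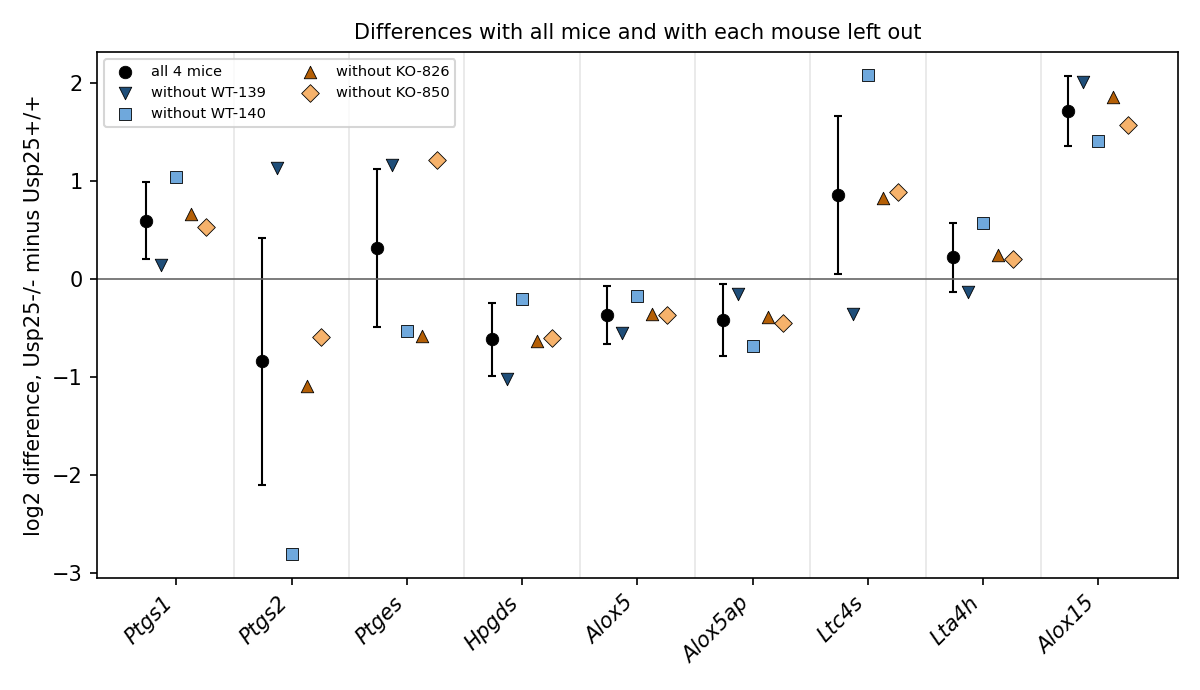
Log2 difference (Usp25-/- minus Usp25+/+, vertical axis) of the 9 tested synthesis genes with all 4 mice (black, bars are the SE) and with each mouse left out in turn. Alox15 stays between 1.41 and 2.01, whereas Ptgs2 runs from -2.81 without mouse WT-140 to 1.13 without mouse WT-139.

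Alox15 (the leukocyte type) and Alox12 (the platelet type) encode lipoxygenases that oxygenate arachidonic acid at positions near its tail and, in part, feed the synthesis of lipoxins. Alox15 stood at 1.28 and 0.499 FPKM in mice WT-139 and WT-140 and at 4.48 and 5.68 FPKM in mice KO-826 and KO-850. Both Usp25-/- values were above both Usp25+/+ values, and the distance between the genotypes was wider than the spread within either. The means were 0.887 ± 0.549 and 5.08 ± 0.848 FPKM (SD, n = 2), a ratio of 5.73. On the log2(FPKM + 1) scale, which understates the change of so low a gene, the difference was 1.71 ± 0.36 (SE), with a limma adjusted p of 0.968. By its unadjusted p Alox15 ranked at 20 of 12103 genes.

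The Alox15 difference kept its direction with each mouse left out, between 1.41 without mouse WT-140 and 2.01 without mouse WT-139, and adjusted p values by limma were then 0.126 to 1.000. In the Usp25+/+ mice the level of Alox15 was above that of 8.80% and 2.06% of the tested genes, and in the Usp25-/- mice above that of 34.8% and 40.3%. Alox15 met the filter of 1 FPKM in at least 2 mice through the Usp25-/- mice and mouse WT-139. Some markers were also higher in both Usp25-/- mice. The colon epithelium list summed to 12.3 and 13.1 FPKM in Usp25+/+ mice and to 125 and 36.9 FPKM in Usp25-/- mice. Most of it came from Krt20 and Lgals4, and 8 of the 11 genes stayed below 1 FPKM in every mouse. The sum was highest in mouse KO-826, and Alox15 was highest in mouse KO-850. The mast cell proteases Mcpt1 and Mcpt2, at the levels given with Hpgds, were likewise higher in both Usp25-/- mice, and the sum of the mast cell list was 386 and 174 FPKM against 1638 and 701 FPKM, again highest in mouse KO-826. Of the same mast cell list, Kit was lower in both Usp25-/- mice, Hdc overlapped, and 7 genes stayed below 1 FPKM in all mice. The part of either list in the Alox15 level was not tested. Of the eosinophil list, Epx was at 0.211 FPKM in mouse KO-826 and listed at 0 in the others, and Prg2, at most 0.663 FPKM, was highest in mouse WT-140.

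Alox12 was found at 0.993 and 0.506 FPKM in the Usp25+/+ mice and at 0.156 and 0.434 FPKM in the Usp25-/- mice. It was below 1 FPKM in every library and was not tested. Alox12 and Alox15 lie on the minus strand of chromosome 11 (mm9), from 70054959 to 70068855 and from 70157654 to 70165533. Alox12 was lower and Alox15 higher in both Usp25-/- mice than in either Usp25+/+ mouse. The platelet gene Pf4 had 12.4 and 11.0 FPKM in Usp25+/+ and 24.4 and 20.6 FPKM in Usp25-/- mice, while Ppbp, the other well expressed gene of 7 in the platelet list, overlapped, with 19.2 and 0.646 FPKM in Usp25+/+ and 13.8 and 2.95 FPKM in Usp25-/- mice. The remaining 5, Itga2b and Gp9 among them, reached at most 1.37 FPKM. The summed level of the list was 34.1 and 13.4 FPKM against 39.8 and 26.2 FPKM, and its part in the Alox12 level was not tested.

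The remaining genes lie at separate places of the mm9 build, and all are annotated as protein-coding. Ptgs2 is on chromosome 1 (151947254 to 151955140), Ptges and Ptgs1 on chromosome 2 (30744991 to 30785383 and 36085946 to 36107792) and Alox5ap on chromosome 5 (150076634 to 150099621). Hpgds and Alox5 are on chromosome 6 (65067287 to 65094902 and 116360095 to 116411196), Lta4h is on chromosome 10 (92916141 to 92947641) and Ltc4s on chromosome 11 (50049971 to 50052118). Ltc4s overlaps a noncoding RNA (Gm16641), Hpgds a pseudogene and Alox5ap an annotated ribosomal RNA (n-R5s180), each on the opposite strand, and Ptges overlaps a pseudogene on its own strand. The use of strand is not given, so reads of the opposite-strand partners may not be separated from those of the first 3 genes, and for Ptges the overlap remains whether or not strand was used.

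Genes with the most similar pattern over the 4 mice were looked up for the 4 synthesis genes that spanned at least 2 log2 units. Likeness is the root-mean-square difference between centred log2(FPKM + 1) values, with 0 for the same shape. For Ptgs2 the nearest were Clec4d (0.11), Cd38 (0.12) and Cass4 (0.15). Clec4d, a C-type lectin receptor of myeloid cells, stood at 706 FPKM in WT-139, 42.8 FPKM in WT-140, 119 FPKM in KO-826 and 69.3 FPKM in KO-850. For Ltc4s they were Map1lc3a (0.07), Tmem238 (0.10) and Clec1b (0.11). Ptges came closest to Itpkc, Ambp and Tes, at 0.16 to 0.17, with Tes at 90.2 and 22.2 FPKM in Usp25+/+ mice and 87.3 and 30.9 FPKM in Usp25-/- mice. For Alox15 the nearest were Rnu11 (0.21), H2-Q8 (0.27) and Mcpt-ps1 (0.29). H2-Q8, a nonclassical MHC class I gene of a family with near-identical members, was at 0.197 and 0.141 FPKM in Usp25+/+ mice and at 3.51 and 4.63 FPKM in Usp25-/- mice. The 4 points are the same libraries for every gene, so likeness describes shape over these mice alone.

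The wider eicosanoid pathway was read from a list of 57 genes, of which 33 were tested. Of these, 18 were higher and 15 lower in Usp25-/- mice, or 54.5% higher, close to the 53.6% over all tested genes. Without mouse WT-139, 12 were higher and 21 lower, beside 48.5% higher over all genes tested then. Limma called 0 of the 33 with all mice, and 0 of them were under the unadjusted threshold of 0.05. The genotypes did not overlap for 4 of the 33 that were higher and 3 that were lower, shares below the 19.0% and 14.7% of all tested genes, so the lack of overlap noted for single genes below is a description only.

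Among 19 phospholipase A2 genes, 8 were tested, 5 of them higher and 3 lower. Pla2g1b, a secreted form, was found at 1.40 and 1.60 FPKM in the Usp25+/+ mice and at 2.78 and 3.19 FPKM in the Usp25-/- mice, without overlap (log2 difference 0.67 ± 0.30, SE). Pla2g7, the platelet-activating factor acetylhydrolase, had 438 and 98.5 FPKM in Usp25+/+ and 103 and 76.4 FPKM in Usp25-/- mice. Only mouse WT-139 was far from the rest, and the Pla2g7 difference of -1.22 ± 0.74 became -0.15 without it. Pla2g6, a calcium-independent form, overlapped between the genotypes, at 2.44 to 3.88 against 3.35 to 4.78 FPKM.

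Of 5 tested prostanoid synthases outside the core genes, 4 were higher. Ptges3, the cytosolic prostaglandin E synthase and HSP90 co-chaperone, had 35.6 and 25.0 FPKM in Usp25+/+ and 44.8 and 41.7 FPKM in Usp25-/- mice, without overlap (0.52 ± 0.32, SE). Ptgis, the prostacyclin synthase, was apart in mouse KO-850, at 9.68 FPKM against 2.20 to 4.47 FPKM in the other 3 mice. Fam213b, a prostamide and prostaglandin F synthase, overlapped, at 4.94 and 11.3 FPKM against 13.4 and 7.51 FPKM. Of the 4 other lipoxygenase genes, Aloxe3 was the only one tested, at 1.07 and 6.99 FPKM against 3.70 and 4.17 FPKM.

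Of 9 tested genes for breakdown or conversion, 6 were higher and 3 lower. Ptgr1, which inactivates leukotriene B4 and reduces prostaglandin metabolites, was found at 14.8 and 37.7 FPKM in the Usp25+/+ mice and at 64.6 and 50.5 FPKM in the Usp25-/- mice. The genotypes did not overlap, with a log2 difference of 1.23 ± 0.50 (SE, limma adjusted p = 0.968), and 0.59 without mouse WT-139. Ephx2, the soluble epoxide hydrolase, had 4.88 and 5.84 FPKM in Usp25+/+ and 11.9 and 7.87 FPKM in Usp25-/- mice, also without overlap (0.75 ± 0.32, SE). Hpgd, the main prostaglandin-degrading dehydrogenase, was low in mouse KO-826, at 4.91 FPKM, and at 22.0 to 26.1 FPKM in the other 3 mice. Mouse KO-826 also held the highest Ptges, whereas KO-850, the other Usp25-/- mouse, had 11.6 FPKM of Ptges and the highest Hpgd. A link between Ptges and Hpgd was not tested.

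All 3 transporters were tested. Abcc1, an exporter of leukotriene C4, had 16.2 and 6.52 FPKM in Usp25+/+ and 5.78 and 4.27 FPKM in Usp25-/- mice, lower in both Usp25-/- mice (-0.93 ± 0.47, SE) and by -0.33 without mouse WT-139. The prostaglandin importer Slco2a1 and the exporter Abcc4 overlapped, at 8.60 to 16.1 FPKM and at 3.74 to 6.79 FPKM over the 4 mice.

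Receptors were mostly low. Of 9 prostanoid receptors, 4 were tested, 1 higher and 3 lower. Ptger4, a prostaglandin E2 receptor, had 6.26 and 5.78 FPKM in Usp25+/+ and 5.00 and 5.24 FPKM in Usp25-/- mice, lower without overlap but by only -0.20 ± 0.28 (SE). Ptger2, another prostaglandin E2 receptor, stayed between 3.14 and 3.86 FPKM in all mice. Ptgir, the prostacyclin receptor, paired a low and a high mouse in each genotype, at 5.79 and 14.8 FPKM against 7.15 and 15.6 FPKM.

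Of 6 leukotriene and lipoxin receptors, the 3 tested were all lower on average in Usp25-/- mice. Fpr2, a formyl peptide and lipoxin receptor of neutrophils, stood at 604 and 13.2 FPKM in mice WT-139 and WT-140 and at 30.8 and 29.7 FPKM in mice KO-826 and KO-850. Ltb4r1, the high-affinity receptor of leukotriene B4, had 20.8 and 1.29 FPKM in Usp25+/+ and 4.52 and 5.10 FPKM in Usp25-/- mice. Both had the arrangement seen for Ptgs2, with mouse WT-139 highest and mouse WT-140 lowest. Their log2 differences turned from -1.57 ± 1.69 to 1.13 for Fpr2 and from -0.28 ± 1.04 to 1.34 for Ltb4r1 without mouse WT-139. Without mouse WT-140, which left mouse WT-139 as the lone Usp25+/+ mouse, the difference was -4.27 for Fpr2 and -2.16 for Cyp4f18. Cyp4f18, a neutrophil enzyme that inactivates leukotriene B4, was chosen here because limma called it in that fit. Cysltr1, a cysteinyl leukotriene receptor, had 2.61 and 2.78 FPKM in Usp25+/+ and 2.60 and 2.03 FPKM in Usp25-/- mice.

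**Figure D5:**
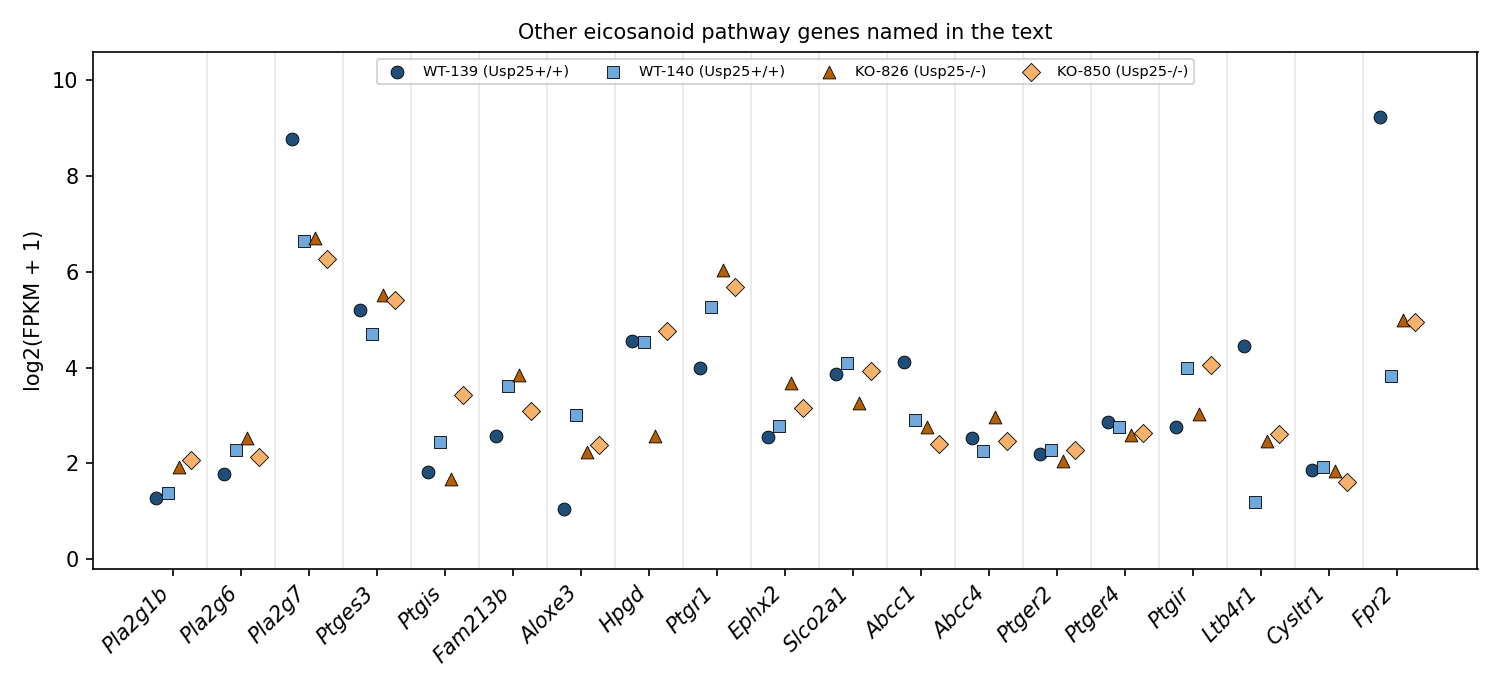
Levels of the named pathway genes outside the core synthesis set, in log2(FPKM + 1) units (vertical axis), a point per mouse, ordered from phospholipases to receptors. Fpr2 reaches 604 FPKM in mouse WT-139 against 13.2 to 30.8 FPKM in the others, and Ptgr1 lies at 64.6 and 50.5 FPKM in Usp25-/- mice above 14.8 and 37.7 FPKM in Usp25+/+ mice.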

How the data were processed

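Polyadenylated RNA of 4 mice had been sequenced, and the authors deposited 1 table of FPKM values with a column for each mouse. Bowtie 0.12.2 and build mm9 are named in the submitters' processing notes. For the tool behind the FPKM values, the annotation and strandedness, no statement is given in the sources used here. FPKM carries no read totals, so the depth is unknown and no counting interval is given. Mouse WT-139 also stood apart in genes listed at 0, with 3862 against 8813 in WT-140, 7175 in KO-826 and 8612 in KO-850. Genes at 1 FPKM or more numbered 12058, 11656, 11759 and 11879 in the same order of mice. The cause of the difference in zeros was not tested, and it bears on values below 1 FPKM. The columns sum to 525993 to 565007 FPKM.

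Symbols turned into dates (27 rows) were left out. Genes at 1 FPKM or more in at least 2 mice were tested as log2(FPKM + 1) with limma 3.58.1 in R 4.3.3, with a mean-variance trend, two-sided, no block, and Benjamini-Hochberg adjustment over all 12103 genes. An exact permutation test of 2 against 2 cannot go below p = 0.333, so none was run. The limma fit was also run on simulated data with independent values for each gene and mouse. Those data hold no outlying library, so that run does not cover a mouse such as WT-139. No label gives a litter, batch or day, so the p-values take no account of them. They rest on 4 animals, with each gene's variance drawn towards the mean-variance trend over all tested genes. Other settings tried were a pseudocount of 0.1, no filter, 2 rescalings, no variance trend and each mouse left out.

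All 10 core genes are named, with the 3 tested genes of smallest p in each pathway role. Those genes and all lists were chosen with earlier results of these data known. Positions come from Gencode M1 on mm9, and start-site windows from RefSeq on GRCm38.p6 (8 of 10 genes matched). Python 3.11.15, pandas 2.3.3 and matplotlib 3.10.9 were used.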

Additional observations from a re-analysis of the deposited data

How the results depend on the processing

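Under the other pseudocount, no filter, both rescalings and the fit without a variance trend, all 9 tested synthesis genes kept their direction and none was called. Without a filter the pathway list had 25 genes lower in place of 15, since more genes entered. Leaving out each mouse in turn moved the number of genes called from 0 to between 0 and 163, and that of pathway genes called to between 0 and 2. The log2 difference then ranged from -2.81 to 1.13 for Ptgs2, from -0.59 to 1.22 for Ptges, from -0.36 to 2.08 for Ltc4s and from -0.13 to 0.57 for Lta4h. Among pathway genes it ranged from -0.46 to 1.28 for Ptgis, from -0.15 to 0.90 for Fam213b, from -0.70 to 1.25 for Aloxe3, from -1.97 to 0.22 for Hpgd, from -0.19 to 0.030 for Ptger2, from -0.44 to 0.78 for Ptgir, from -1.91 to 1.34 for Ltb4r1 and from -4.27 to 1.13 for Fpr2. Usp25 was called by limma without mouse WT-140 (-3.65, adjusted p = 0.0341). A lone mouse of a genotype is assumed to vary like the others, and the causes were not tested. The unknown depth limits what the values of Alox12, Alox15 and the low receptors can show.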
